A study of Mus musculus with 6 samples.

Results

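Genes of the mesothelium were followed in bulk RNA-Seq of whole embryonic lungs. The list holds 8 genes that mark this cell layer, namely *Wt1*, *Bnc1*, *Upk3b*, *Upk1b*, *Lrrn4*, *Gpm6a*, *Msln* and *Muc16*. They were chosen by name with their measured values in control and mutant lungs already known. Of the 8, 7 were among the 23420 genes of the table and all 7 were among the 17168 genes tested, which needed 1 normalized count or more in no fewer than 3 libraries. *Muc16* was not analysed here.

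Lungs were collected from *Mus musculus* embryos at stage E11.5dpc (dpc, days post coitus). The control group, Raptorf/+; ShhCre/+, carried 1 floxed allele of *Rptor*, and the mutant group, Raptorf/f; ShhCre/+, carried the floxed allele on both chromosomes. *Rptor* encodes Raptor, a core component of the growth-controlling kinase complex mTORC1. Both groups carried ShhCre, a Cre recombinase placed under the control of *Shh* and expressed broadly in the lung epithelium, so that deletion was directed to the epithelium and not to the mesothelium. Control lungs therefore also carried Cre and could lose a copy of *Rptor* in the same cells. ShhCre is an allele of *Shh* itself, and the paper labels lungs with ShhCre on both chromosomes as lacking *Shh*. Both groups here carried 1 such allele. Each group had 3 pools of lungs, and each pool joined 3 or 4 lungs of the same genotype. Controls were littermates. The *Rptor* and *Shh* alleles came from lines on a B6.Cg background. Embryos of both sexes were used in the study, and the sex of the embryos in each pool was not given in the sources used here. The p-values below set the difference between the groups against the spread between these pools. The tests adjusted that spread for each gene by the spread of all tested genes.

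The mesothelium is the sheet of flat epithelial cells that covers the lung and the other organs of the body cavities. In the embryo it expresses the transcription factor WT1, makes retinoic acid, secretes growth factors to the mesenchyme beneath it and gives rise to some mesenchymal cells of the lung. It carries simple keratins, as the airway epithelium does, together with membrane proteins known from the bladder lining (uroplakins). In RNA from whole lungs, fewer cells of a type and less RNA per cell cannot be told apart.

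The libraries were of similar depth, with 20197642 to 21276090 reads recovered per library from the deposited values. Control pool 3 stood farthest from the other pools of its group, by a mean absolute log2 difference of 0.288 per gene against 0.20 to 0.268 for the other 5 pools. *Rptor* itself was at 2126, 2193 and 2279 normalized counts in control pools 1, 2 and 3 and at 2023, 2137 and 2148 in mutant pools. The groups overlapped, and its log2 fold change was -0.06 (limma adjusted p = 0.584). This count covers the whole gene in all cells of the lung, so it does not check the deletion in the epithelium.

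To show the regulatory sequence beside the values, the 250 bases upstream of the annotated start were taken from RefSeq (GRCm38.p6). An entry was found for 4 of the 7 genes, with 5 windows, since *Gpm6a* has 2 annotated starts, while *Wt1*, *Upk1b* and *Msln* had none. The first 3 windows shown hold GGAATG, the core letters bound by TEAD factors, or its reverse complement CATTCC, and these letters are in capitals. The *Bnc1* window is shown because it holds no match and differs from the others in base composition. All are written 5′ to 3′ on the strand of the gene.
Upk3b: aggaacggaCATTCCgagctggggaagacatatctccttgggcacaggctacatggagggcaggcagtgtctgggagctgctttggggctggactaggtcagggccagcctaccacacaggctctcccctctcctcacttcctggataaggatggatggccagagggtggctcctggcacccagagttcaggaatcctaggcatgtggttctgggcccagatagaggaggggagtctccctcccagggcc
Lrrn4: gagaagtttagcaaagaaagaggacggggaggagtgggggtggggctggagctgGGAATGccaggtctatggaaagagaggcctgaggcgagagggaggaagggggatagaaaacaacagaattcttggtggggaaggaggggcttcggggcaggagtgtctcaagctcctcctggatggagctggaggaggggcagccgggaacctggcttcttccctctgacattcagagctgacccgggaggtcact
Gpm6a: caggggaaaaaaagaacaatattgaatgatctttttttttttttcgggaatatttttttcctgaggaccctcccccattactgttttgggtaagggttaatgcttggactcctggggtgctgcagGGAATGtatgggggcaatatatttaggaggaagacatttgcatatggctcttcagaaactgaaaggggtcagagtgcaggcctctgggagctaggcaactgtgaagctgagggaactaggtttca
Bnc1: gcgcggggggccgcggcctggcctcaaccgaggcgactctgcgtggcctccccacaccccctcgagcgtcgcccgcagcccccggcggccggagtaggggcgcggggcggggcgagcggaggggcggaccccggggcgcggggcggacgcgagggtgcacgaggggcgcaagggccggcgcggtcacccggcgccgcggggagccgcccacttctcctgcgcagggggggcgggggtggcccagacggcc

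The *Upk3b* window lies at chr5:136038246-136038495 on the plus strand, and its match begins 241 bases before the start. The *Lrrn4* window lies at chr2:132880863-132881112 on the minus strand, with the match 196 bases before the start. For *Gpm6a* the window of the distal start is chr8:54779184-54779433 on the plus strand, with the match 125 bases before the start. The window of its nearer start, chr8:54954478-54954727, held no match. The *Bnc1* window, chr7:81992300-81992549 on the minus strand, is 83.6% G and C, against 60.8% for *Upk3b*, 59.2% for *Lrrn4* and 44.4% for the distal *Gpm6a* window. Over all 32851 promoter windows of the same length, 4153 (12.6%) held GGAATG on either strand. The letters AGATAA, the core bound by GATA factors, occurred in 9.99% of windows, and GCGGGGGCG, a core shared by WT1 and EGR factors, in 2.57%. Neither of these was found in the 5 windows. A match is only a description of the letters, and no match says only that they are not in this window.

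The first question was how abundant mesothelial transcripts were in lungs at this stage. Divided by exonic length (GENCODE M21), *Upk3b*, a uroplakin of the mesothelial surface, was the most abundant of the 7, at 589 ± 57.0 normalized counts per kb (SD, n = 3) in control pools, the 89.3 percentile of tested genes by their mean over all pools. *Lrrn4*, a leucine-rich repeat membrane protein, followed at 204 ± 20.3, and *Upk1b*, a tetraspanin that partners other uroplakins, at 172 ± 11.0. *Wt1* at 122 ± 1.76 and *Bnc1* at 119 ± 4.61 normalized counts per kb did not differ beyond their spread, and the gap between *Lrrn4* and *Upk1b* was about the sum of their SDs. *Gpm6a*, a neuronal membrane glycoprotein also made by mesothelium, was lower, at 34.2 ± 6.74. *Msln* (mesothelin), the surface protein used as a marker of adult mesothelium, was near the limit of detection at 1.42 ± 0.496, the 5.82 percentile. The name of the list thus rested on 6 genes, with this defining marker almost absent.

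*Wt1* encodes a zinc finger transcription factor required for mesothelial development and lies on chromosome 2 from 105126529 to 105173616 on the plus strand. It was at 759.3, 764.5 and 743.5 normalized counts in control pools 1, 2 and 3, and at 885.9, 970.7 and 961.9 in mutant pools 1, 2 and 3. All 3 mutant pools lay above all 3 control pools. Its mean was 755.7 ± 10.9 (SD, n = 3) in control and 939.5 ± 46.6 (SD, n = 3) in mutant lungs, which is 24.3% higher, and the log2 change was 0.31 ± 0.06 (SE). The control pools differed among themselves by a coefficient of variation of 1.45%, below the 3.43% that counting of reads alone would give at this depth.

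*Bnc1* (basonuclin 1), a zinc finger protein of mesothelial and squamous epithelial cells, lies on chromosome 7 from 81966672 to 81992292 on the minus strand. It was at 528.4, 563.0 and 567.6 normalized counts in control pools and at 623.3, 669.7 and 624.3 in mutant pools. As for *Wt1*, the groups did not overlap. The means were 553.0 ± 21.4 and 639.1 ± 26.5 (SD, n = 3 each), with a log2 change of 0.21 ± 0.06 (SE). An opposite-strand pseudogene, 4833418N17Rik, shares 98 bases or 2.11% of its exonic length, and whether reads were counted by strand is not given in the sources used here. The ratio of *Wt1* to *Bnc1* within a pool was 0.45 ± 0.07 on the log2 scale in control and 0.56 ± 0.06 in mutant lungs, and the groups overlapped.

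Of the uroplakins, *Upk3b* did not overlap between the groups and *Upk1b* did. *Upk3b* (chromosome 5, 136038496 to 136046487, plus strand) was at 2098, 2270 and 1869 normalized counts in control pools and at 2299, 2499 and 2365 in mutant pools. The lowest mutant pool was only just above the highest control pool, and control pool 3 was the lowest of all 6. Its means were 2079 ± 201 and 2388 ± 102 (SD, n = 3 each), with a log2 change of 0.20 ± 0.07 (SE). *Upk1b* (chromosome 16, 38773184 to 38800328, minus strand) was at 375.2, 369.8 and 333.0 in control pools and at 392.4, 338.3 and 375.9 in mutant pools. The groups overlapped, with mutant pool 2 close to the lowest control pool. Its means were 359.3 ± 23.0 and 368.8 ± 27.7 (SD, n = 3 each), with a log2 change of 0.04 ± 0.09 (SE). Within a pool, *Upk1b* stood at -2.53 ± 0.08 relative to *Upk3b* on the log2 scale in control and at -2.70 ± 0.17 in mutant lungs. This ratio overlapped between the groups, so a difference in change between the uroplakins was not shown.

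Among the membrane proteins, *Lrrn4* (chromosome 2, 132868305 to 132880891, minus strand) was at 721.0, 845.1 and 708.7 normalized counts in control pools and at 755.1, 974.6 and 888.3 in mutant pools. Mutant pool 1 fell within the control range and the other 2 mutant pools lay above it. The means were 758.2 ± 75.4 and 872.6 ± 111 (SD, n = 3 each), with a log2 change of 0.20 ± 0.10 (SE). *Gpm6a* (chromosome 8, 54954843 to 55060871, plus strand) was at 106.1, 133.3 and 90.45 in control pools and at 127.7, 121.6 and 139.4 in mutant pools. Control pool 2 lay among the mutant pools, and the groups overlapped. The means were 109.9 ± 21.7 and 129.6 ± 9.04 (SD, n = 3 each), with a log2 change of 0.25 ± 0.16 (SE).

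*Msln* (chromosome 17, 25748613 to 25754378, minus strand) was at 2.947, 4.132 and 5.964 normalized counts in control pools and at 3.065, 2.941 and 1.963 in mutant pools. These values stand for 3, 4 and 6 reads in control and 3, 3 and 2 reads in mutant pools. In all, 13 reads (exact Poisson 95% interval 6.92 to 22.2) were set against 8 reads (3.45 to 15.8). The ratio of mutant to control reads was 0.61 with a 95% interval from 0.219 to 1.59, which covers counting error only. A difference in *Msln* was not detectable at this depth in either direction.

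**Figure D1:**
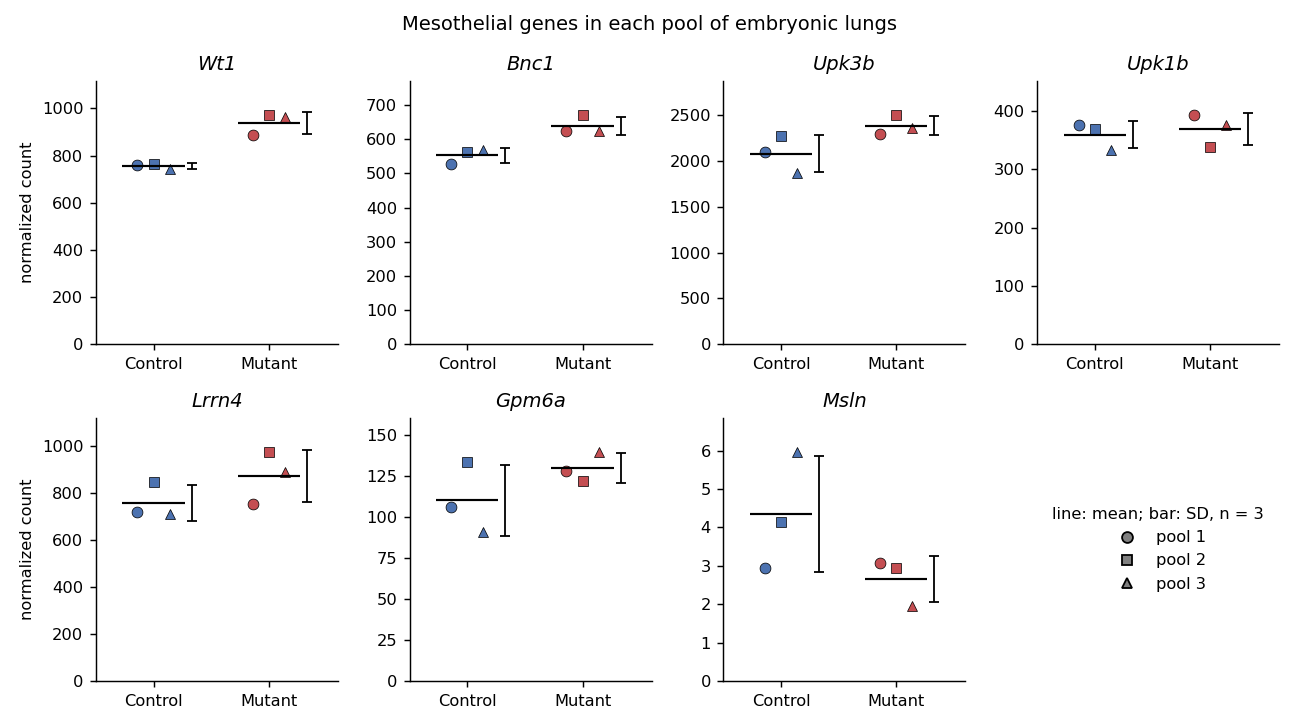
Normalized counts of the 7 mesothelial genes in each of the 3 control and 3 mutant pools (vertical axis from 0, own scale for each gene; lines are means, bars the SD, n = 3). *Wt1*, *Bnc1* and *Upk3b* show no overlap between the groups, while *Upk1b*, *Lrrn4*, *Gpm6a* and *Msln* do.

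Counted together, 3 of the 7 genes (*Wt1*, *Bnc1* and *Upk3b*) had every mutant pool above every control pool, which 9.77% of all tested genes did. With limma and Benjamini-Hochberg adjustment over all genes, 1 of the 7 (*Wt1*, higher in mutant pools) passed an adjusted p of 0.05, against 0.501% of all genes in either direction and 0.186% in the higher direction. That call of *Wt1* lay just inside the threshold and was lost in 7 of 9 alternatives that kept all 6 libraries, and in 5 of 6 that left out 1 pool, all but that without control pool 3. The 86 genes behind the 0.501% became 1 to 468 when 1 pool was left out. The genes were picked with this contrast in view, so these counts are a description. The median log2 fold change of the 7 was 0.20, with 6 of 7 above 0, and that of all tested genes was -0.00. Without *Msln* the median of the 6 others was 0.21, from 0.04 in *Upk1b* to 0.31 in *Wt1*. When values were scaled to the mean of the lung mesenchyme list, the median was 0.0183 and that of all tested genes -0.184. *Upk1b* was then at -0.15, and *Wt1* at 0.13.

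Several of these genes had their lowest or highest value in the same pool of a group. This is an order only, and the share of all tested genes with the same order was not taken. For *Wt1* the spread among control pools was below that of read counting (1.45% against 3.43%), so its order there is not read. Of the 6 genes other than *Msln*, 5 had their lowest control value in pool 3 (*Wt1*, *Upk3b*, *Upk1b*, *Lrrn4* and *Gpm6a*), and *Bnc1* had its highest there. Control pool 2 held the highest control value of 4 genes, *Wt1*, *Upk3b*, *Lrrn4* and *Gpm6a*. Among mutant pools, pool 2 was the highest for *Wt1*, *Bnc1*, *Upk3b* and *Lrrn4*, and pool 1 was the lowest for the same 4 genes. The median log2 fold change of the 7 genes was 0.13 without control pool 3 and 0.27 without control pool 2.

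Other genes of the mesothelium were then examined, 25 in all, of which 24 were tested. None passed an adjusted p of 0.05 with limma, 0 of the 21 that edgeR tested did so on recovered reads, and 5 had an unadjusted limma p under 0.05, which 13.6% of all tested genes had in either direction and 6.67% in the higher direction. All 5 (*Igfbp5*, *Thbd*, *Aldh1a2*, *Tmem151a* and *Nkain4*) were on the higher side in mutant lungs and did not overlap between the groups, as 9.77% of all tested genes did on that side. The median log2 fold change over the 24 genes was 0.07, with 18 above and 6 below 0, beside -0.00 for all tested genes. *Dmkn*, which encodes dermokine, was listed at 0 in all 6 libraries.

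*Aldh1a2*, the enzyme by which the mesothelium makes retinoic acid, was at 3715, 3907 and 3805 normalized counts in control pools and at 4264, 4387 and 4139 in mutant pools. Its log2 change was 0.16 ± 0.04 (SE, limma adjusted p = 0.126), and with edgeR without control pool 3 it was 0.16 (adjusted p = 0.0431). *Thbd* (thrombomodulin), a thrombin receptor of mesothelium that endothelium also makes, was at 2836, 3354 and 2188 in control pools and at 3643, 4253 and 3935 in mutant pools. Control pool 3 was again the lowest. Its log2 change was 0.52 ± 0.13 (SE, limma adjusted p = 0.119), or 0.35 without control pool 3 (limma adjusted p = 0.0176) and 0.66 without control pool 2 (limma adjusted p = 0.0253).

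*Igfbp5*, an insulin-like growth factor binding protein, was at 56600, 56410 and 64730 normalized counts in control pools and at 70290, 70710 and 69400 in mutant pools. Here control pool 3 was the highest control, the opposite of its place for *Thbd*. The log2 change was 0.25 ± 0.05 (SE, limma adjusted p = 0.0931), and 0.31 without control pool 3 (limma adjusted p = 0.000434). *Tmem151a*, a transmembrane protein, was at 251.5, 259.3 and 254.5 in control pools and at 281.0, 323.6 and 301.3 in mutant pools, with a log2 change of 0.24 ± 0.09 (SE, limma adjusted p = 0.248). *Tbx18*, a T-box factor of mesothelium and mesenchyme, had a log2 change of 0.19 (limma adjusted p = 0.493) and passed the threshold only without control pool 3 (0.34, limma adjusted p = 0.0169).

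A further 10 genes are made by both mesothelium and airway epithelium, the cell layer in which Cre was expressed. Of these, 2 passed the limma threshold, both lower in mutant lungs, beside 0.501% of all tested genes in either direction. The median log2 fold change of the 10 was -0.04. *Krt8* and *Krt18*, which pair in the filaments of simple epithelia, fell from 1333 ± 123 to 905.2 ± 31.2 (log2 fold change -0.55, limma adjusted p = 0.0128) and from 1264 ± 37.7 to 920.2 ± 71.8 (-0.46, limma adjusted p = 0.0263; SD, n = 3 each). Neither passed without control pool 1, or without any 1 of the 3 mutant pools.

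*Krt19*, another simple keratin that is strong in mesothelium, was at 282.9, 334.7 and 287.3 normalized counts in control pools and at 384.2, 437.3 and 407.3 in mutant pools. The groups did not overlap, and its log2 change was 0.44 ± 0.09 (SE, limma adjusted p = 0.0734), or 0.41 without control pool 3 (limma adjusted p = 0.036) and 0.52 without control pool 2 (limma adjusted p = 0.038). Within each pool, *Krt19* relative to *Krt8* was -2.14 ± 0.12 on the log2 scale in control and -1.15 ± 0.14 in mutant lungs, a change of 1.0 in a measure that does not depend on the scaling of the library. *Krt18* relative to *Krt8* overlapped between the groups, at -0.07 ± 0.14 and 0.02 ± 0.08. *Gata6*, a zinc finger factor of both layers, had a log2 change of 0.20 (limma adjusted p = 0.121).

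**Figure D2:**
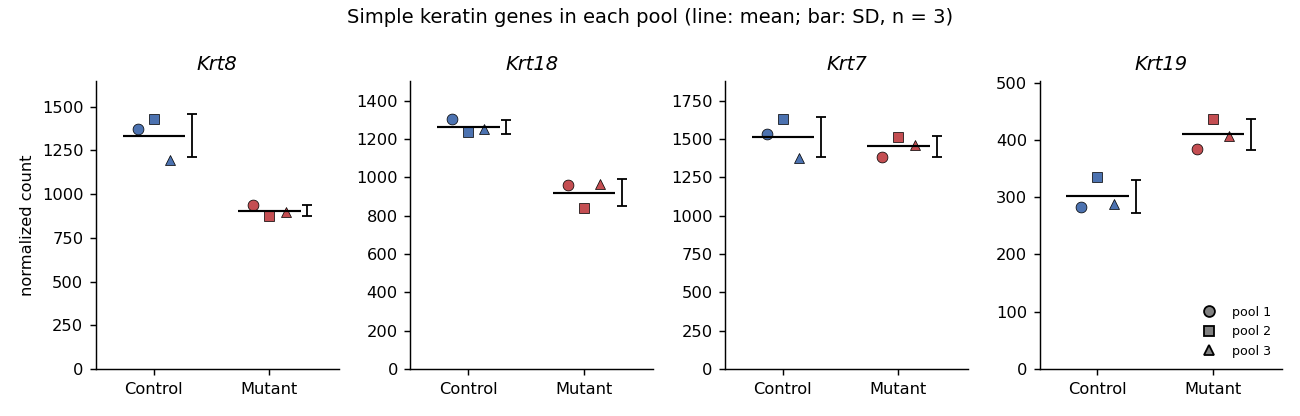
Normalized counts of 4 simple keratin genes in each control and mutant pool (vertical axes from 0; lines are means, bars the SD, n = 3). *Krt8* and *Krt18* lie lower in every mutant pool, *Krt7* overlaps between the groups, and *Krt19* lies higher in every mutant pool.

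Relatives of these genes were examined for their own changes, 13 in all, of which 11 were tested. *Muc4* was put on this list beside *Muc16* as a membrane mucin, and common descent of these genes was not examined. *Muc4*, found in airway epithelium, fell from 34.81 ± 3.78 to 11.92 ± 0.763 normalized counts (SD, n = 3 each; log2 fold change -1.47, limma adjusted p = 0.0385). It was the only gene of the list to pass, where 0.501% of all tested genes passed. It did not pass when any 1 pool other than control pool 3 was left out. The median log2 fold change over the 11 was -0.11. *Upk3a*, a bladder uroplakin related to *Upk3b*, was at 6.876, 4.132 and 6.958 in control pools and at 2.044, 0.9805 and 0.9815 in mutant pools (log2 fold change -1.58, limma adjusted p = 0.174). *Upk2* and *Mslnl* were under the filter on low values. *Gpm6b*, the relative of *Gpm6a*, had a log2 change of 0.26 (limma adjusted p = 0.200), and *Lrrn2*, a relative of *Lrrn4*, 0.27 (limma adjusted p = 0.343).

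To place these genes among the cell types of the lung, the mean log2 value of the 7 was set against that of marker lists in the same pool. Relative to 15 lung mesenchyme genes, the 7 stood at -3.29, -3.09 and -3.28 in control pools and at -3.32, -3.27 and -3.33 in mutant pools, and the groups overlapped. The change was -0.09, or 0.02 without *Msln*. Relative to 20 lung epithelium genes they stood at -1.65, -1.55 and -1.47 in control pools and at -1.18, -0.98 and -1.15 in mutant pools, which did not overlap. That change was 0.45, or 0.55 without *Msln*. The mean log2 value of the 7 changed by 0.1 and that of the epithelium list by -0.35. The 24 other mesothelial genes changed by 0.44 relative to lung epithelium and by -0.1 relative to lung mesenchyme.

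**Figure D3:**
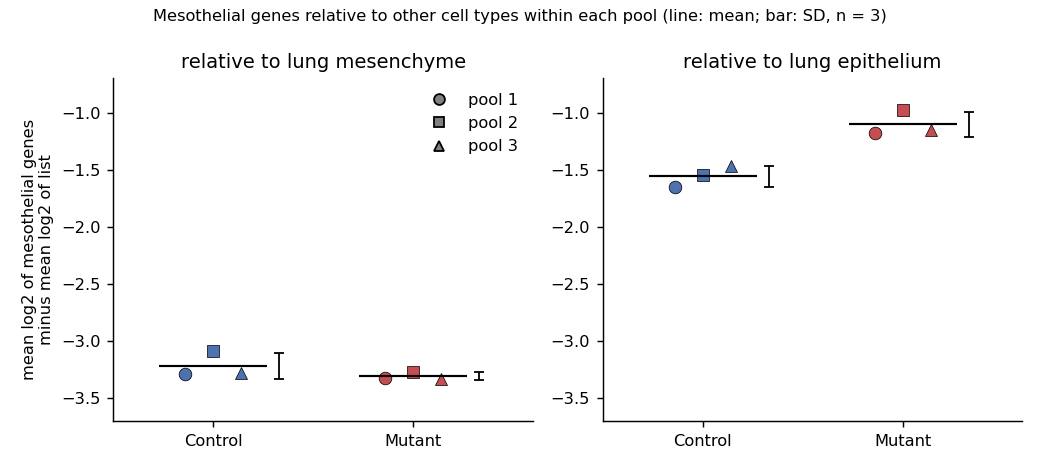
Mean log2 value of the 7 mesothelial genes minus that of the lung mesenchyme list (left) and of the lung epithelium list (right) in each pool (lines are means, bars the SD, n = 3). Control and mutant pools overlap on the left, and all mutant pools lie above all control pools on the right.

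Of the mesenchyme list, 3 of 15 genes passed, all higher in mutant lungs (*Col1a1* 0.49, *Col1a2* 0.34 and *Col3a1* 0.26 on the log2 scale, limma adjusted p = 0.0125, 0.0128 and 0.047), with a median of 0.13 and a summed level of 98490 to 104200 normalized counts in control and 118800 to 127000 in mutant pools. Of the epithelium list, 5 of 20 passed, all lower, led by *Cdh1* (E-cadherin, -0.97, limma adjusted p = 0.00728), with a median of -0.39 and sums of 24860 to 29270 and 21310 to 22620. The 7 mesothelial genes summed to 4318 to 4950 in control and 5086 to 5577 in mutant pools. No gene of the smooth muscle list (6 genes, median 0.32, sums 7291 to 9070 and 9655 to 10660) or the endothelium list (7 genes, median 0.20, sums 11670 to 13340 and 13490 to 14180) passed. Of all tested genes, 0.501% passed in either direction. Over the marker lists of all other cell types, including those not in this paragraph, 8 genes passed. That count became 0 to 24 when 1 pool was left out. Every mutant pool lay above every control pool in 6 of 15 mesenchyme, 3 of 6 smooth muscle and 4 of 7 endothelium genes. In these lists 0 genes lay wholly below. The same trait was seen in 3 of the 7 mesothelial genes and in 9.77% of all tested genes. The part of these lists in the values of the mesothelial genes was not tested.

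**Figure D4:**
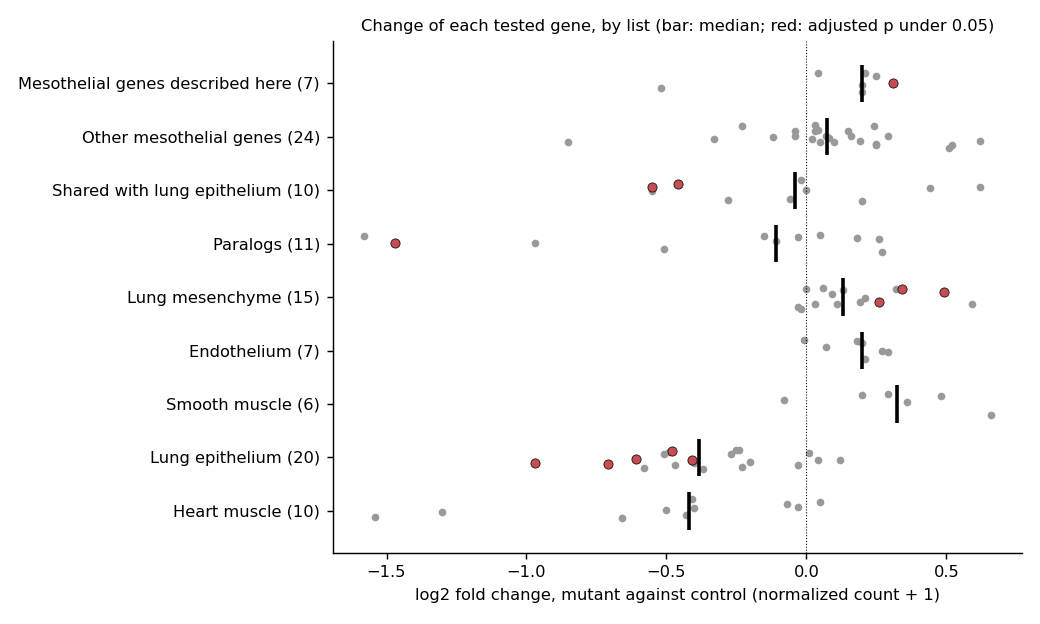
Log2 fold change, mutant against control, of each tested gene by list (points; red where the limma adjusted p was under 0.05; black bars are medians). The median is 0.20 for the 7 mesothelial genes, 0.07 for 24 other mesothelial genes, 0.13 for lung mesenchyme and -0.39 for lung epithelium.

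Several other cell types and tissues also express some of these genes. *Wt1* is made by podocytes of the kidney. Their defining gene *Nphs1* (nephrin) was near 0, at 1.964, 1.033 and 0 normalized counts in control pools and at 9.196, 0.9805 and 0.9815 in mutant pools. *Nphs1* marks podocytes only, so its level does not show whether other *Wt1*-expressing tissue, such as the urogenital ridge, was carried over. Heart muscle genes, which would come along with the epicardium, another *Wt1*-expressing layer, had a median of -0.42 over 10 genes, 0 passed, and sums of 1060 to 1233 in control and 772.6 to 900.2 in mutant pools. Liver genes (7 genes, median -0.18, 0 passed) summed to 298.6 to 445.9 and 263.6 to 321.6. *Gpm6a* is also neuronal, and the 7 neural genes had a median of -0.03, 0 passed, and sums of 2008 to 2177 and 1650 to 2133. Of 6 erythroid genes, 4 were tested and 0 passed, with a median of -0.00, *Hba-a1* and *Hba-a2* listed at 0, and sums of 58190 to 73540 and 57370 to 71100. In the same list *Hbb-y*, another globin, had a mean of 54460 normalized counts in control and 57520 in mutant pools. The 0 values are therefore not read as absence of *Hba-a1* and *Hba-a2* RNA, and their cause was not tested. What part carried-over tissue had in the mesothelial values was not tested.

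Genes whose levels followed the mesothelial genes most closely were sought among 11452 tested genes with a mean normalized count of at least 100. Likeness was Pearson's r, over the 6 pools, with the mean standardized log2 value of the 7 genes, a description in which all points share library and group. Each of the 7 had the same weight, so *Msln*, near the limit of detection, counted as much as *Upk3b*. The genes named are the highest picked from 11452 over only 6 points. The 5 highest were *Gfra2* (a GDNF family receptor, 0.994), *Dctn1* (a dynactin subunit, 0.993), *Aldh2* (mitochondrial aldehyde dehydrogenase, 0.993), *Tmem64* (0.992) and *Esam* (an endothelial adhesion molecule, 0.991). *Gfra2* ranged from 197.8 in control pool 3 to 351.0 normalized counts in mutant pool 2. Of the 24 other mesothelial genes tested, 5 picked by name were looked up. *Thbd* was at 0.971, *Nkain4* at 0.951, *Aldh1a2* at 0.89, *Gata5* at 0.87 and *Igfbp5* at 0.569. All of these but *Gata5* were among those higher in mutant lungs with an unadjusted limma p under 0.05. Likeness of the remaining genes of that list is not reported here, so these 5 do not stand for the list. With the group means taken out, the 5 highest were *Cmss1* (0.998), *Prkcb*, *Rab40c* and *Isg20l2* (0.997 each) and *Fam120a* (0.996), none of which was among the first 5.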

How the data were processed

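RNA of 6 pools of whole lungs was sequenced on a BGISEQ sequencer. The submitters' processing notes name Trim Galore, HISAT2, featureCounts, DESeq2 and mm10, and their versions and settings, strand counting included, are not given in the sources used here. The deposited values (unit, signal) are counts that the authors had normalized with 1 size factor per library. Beside them the authors deposited their own comparison as log2 fold changes with errors, a score and p-values, none of which was used.

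Log2(normalized count + 1) was compared with limma 3.58.1 in R 4.3.3 (lmFit, eBayes with a trend) over genes at 1 or more in no fewer than 3 libraries, and p-values were adjusted by Benjamini-Hochberg (threshold 0.05). Fold changes on this scale understate those of low genes. The normalized values are no raw counts, so limma was used in place of the DESeq2 of the processing notes. Dividing by the smallest step made 100% of values whole reads (within 0.01) in all 6 libraries. The step of control pool 3 lay near 1, so edgeR was also run without it. On the 6 libraries edgeR 4.0.16 (quasi-likelihood, TMM) called 79 of 14670 genes, against 86 with limma. Both tests were tested on simulated data.

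The mesothelial genes and all other lists (other mesothelial genes, genes shared with epithelium, relatives, lung mesenchyme, lung epithelium, smooth muscle, endothelium, heart muscle, liver, erythroid and neural cells) were chosen with earlier results of these data known. A list of kidney cell markers is not reported here. Genes named are the mesothelial genes, up to 4 of each list with the lowest limma p, genes at 0, and the 5 most alike. *Krt7*, *Nkain4*, *Gata5*, *Tbx18* and *Nphs1* were named after their values were seen, as was the choice of motifs. Levels per kb use the exonic union of GENCODE M21 (GRCm38), matched by symbol. Groups and replicate numbers come from the labels, which do not say that a number pairs pools. The alternatives were limma without the trend, 2 other scalings, 2 other filters, 2 other pseudocounts, a replicate block, each pool left out and edgeR, and, chosen after seeing the data, the list without *Msln* and edgeR on 5 libraries.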

Additional observations from a re-analysis of the deposited data

How the results depend on the processing

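The call of *Wt1*, the only one of the 7 mesothelial genes past the limma threshold, was near the threshold. It held with upper-quartile scaling and with edgeR on 6 or 5 libraries, and the count was 0 without the variance trend, when scaled to lung mesenchyme, with no filter, with a minimum of 10, and with a pseudocount of 0.1 or 10. Leaving out 1 pool at a time gave 0 to 1, with 1 only when control pool 3 was left out. The count over all genes was 86, and was 8 without the trend, 5318 when scaled to lung mesenchyme (31 higher and 5287 lower), 545 with edgeR on 5 libraries, and 1 to 468 with 1 pool left out (468 without control pool 3, 1 without control pool 1 or mutant pool 3). Scaling to lung mesenchyme gave 1 other mesothelial gene (*Cdh3*, lower), 6 genes shared with epithelium, 2 relatives and 30 genes of the other marker lists (8 as deposited). Without the trend, 0 genes shared with epithelium and 0 of the other marker lists passed. With edgeR on 5 libraries, 4 other mesothelial genes, 4 shared genes and 24 marker genes passed. With 1 pool left out the counts were 0 to 3 other mesothelial genes (3 without control pool 3, 1 without control pool 2), 0 to 4 shared genes (0 without control pool 1 or any mutant pool), 0 to 1 relatives (1 only without control pool 3) and 0 to 24 marker genes (0 without control pool 1 or mutant pool 3, 2 and 3 without mutant pools 1 and 2, 13 and 24 without control pools 2 and 3). The median log2 fold change of the 7 genes was 0.0183 when scaled to lung mesenchyme and 0.129 to 0.269 with 1 pool left out. The change relative to lung mesenchyme was 0.0166 and that relative to lung epithelium 0.555 without *Msln*. The cause of these differences was not tested.

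With the replicate number as a block, 0 of the 7 genes, 1 other mesothelial gene (*Thbd*, limma adjusted p = 0.0454) and 0 relatives passed, and 71 genes in all. The deviations of same-numbered pools correlated at -0.0189, 0.101 and 0.0307. Control pools 1 and 3 correlated best with a pool of another number, and control pool 2 with mutant pool 2. Such weak correlations over so few pools cannot show whether pools of the same number shared a litter or a batch.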
